A study of Mus musculus with 12 samples.

Results

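Rik names were given to mouse genes known only as RIKEN cDNA clones. Of 1851 rows with a single Rik name in the deposited stage tables, which hold 22552 rows each, 26 changed at least 4-fold, as (FPKM + 1) over (FPKM + 1), between neighbouring germ cell stages in at least 1 table with a completed test and reached 10 FPKM or more in 1 of the 2 groups. FPKM is fragments per kilobase of transcript and of sequencing depth, a level scaled to transcript length. The rule leaves out 1 further gene, 4930528F23Rik, by name, and it is not described here. The label unnamed no longer holds for most of them. All 26 matched a RefSeq gene entry, where 16 now carry another symbol and 10 keep the Rik name, and 25 are annotated as protein-coding and 1, 4933427D06Rik, as a long non-coding RNA.

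The cells were primordial germ cells, the embryonic precursors of eggs and sperm, of C57BL/6 mouse embryos. The wild-type groups are E9.5 and E11.5, of 2 libraries each, and at E13.5 the group E13.5m and a wild-type group with no sex in its label, of 3 libraries each. Tet1 -/- cells (Tet1-KO) of E13.5 gave 2 libraries. TET1 oxidises 5-methylcytosine in DNA. The group E13.5f is named in a table header and in no sample title. Each table gives 1 pooled FPKM value per group, so levels carry no replicate error and sequencing depth is unknown. The SE given with a log2 ratio is the one that the deposited test implies. No label states that the libraries of 1 group come from different embryos, and the spread behind the deposited tests may be technical.

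Germ cells migrate to the forming gonad, switch on a shared germline programme there, and then part ways. In the female gonad they enter meiosis, in which chromosomes attach to the nuclear envelope by their telomeres, break their DNA and are zipped together by the synaptonemal complex. In the male gonad they stop dividing without entering meiosis. Under their present names, several of the 26 genes have parts in these steps: Majin and Terb2 encode subunits of the complex that ties meiotic telomeres to the envelope, Rec114 a factor needed for meiotic DNA breaks, Mcmdc2 an MCM-like protein of meiotic recombination, 4930447C04Rik (synonym Six6os1) a central element protein of the synaptonemal complex, and 1700028K03Rik (synonym SCRE) a protein of crossover formation. The files do not show protein function, and these roles are background.

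All 10 germ cell markers checked were present in every group, with summed levels between 2777 FPKM at E9.5 and 5375 FPKM at E13.5m. Summed male gonad soma markers stayed between 0.486 and 12.5 FPKM and female gonad soma markers between 2.47 and 16.5 FPKM over all groups. In Tet1-KO, Tet1 itself was at 0.218 FPKM, from 6.36 FPKM in wild type. The 3 stage tables hold E11.5 values that are proportional to each other, and stage levels are given on the scale of the E13.5f table, by multiplying the E9.5 table by 0.870 and the E13.5m table by 0.976, unless a table is named. Marker sums are an exception and are given as each table lists them, without this scaling. In pooled bulk RNA, fewer expressing cells and less RNA per cell cannot be told apart.

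The 26 genes were chosen by their FPKM values in the stage tables, so what follows on stages is a description with no test. Of the 26, 6 met the rule between E9.5 and E11.5 (all higher at E11.5), 13 between E11.5 and E13.5f (all higher at E13.5f), and 9 between E11.5 and E13.5m, 4 higher and 5 lower. Of all tested rows, 1.2 percent met it upward and 0.387 percent downward in the first table, 1.68 and 0.329 percent in the E13.5f table, and 0.869 and 0.739 percent in the E13.5m table. Only 2 met it in more than 1 table, Ccdc172 and Fam217b, which were higher in both E13.5 groups. The rule was met by 2.53 percent of Rik rows with a completed test in any stage table (26 of 1027) and by 3.98 percent of single-name rows without a Rik name (525 of 13202). In the plot of levels, the 5 patterns stand as blocks from top to bottom.

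**Figure D1:**
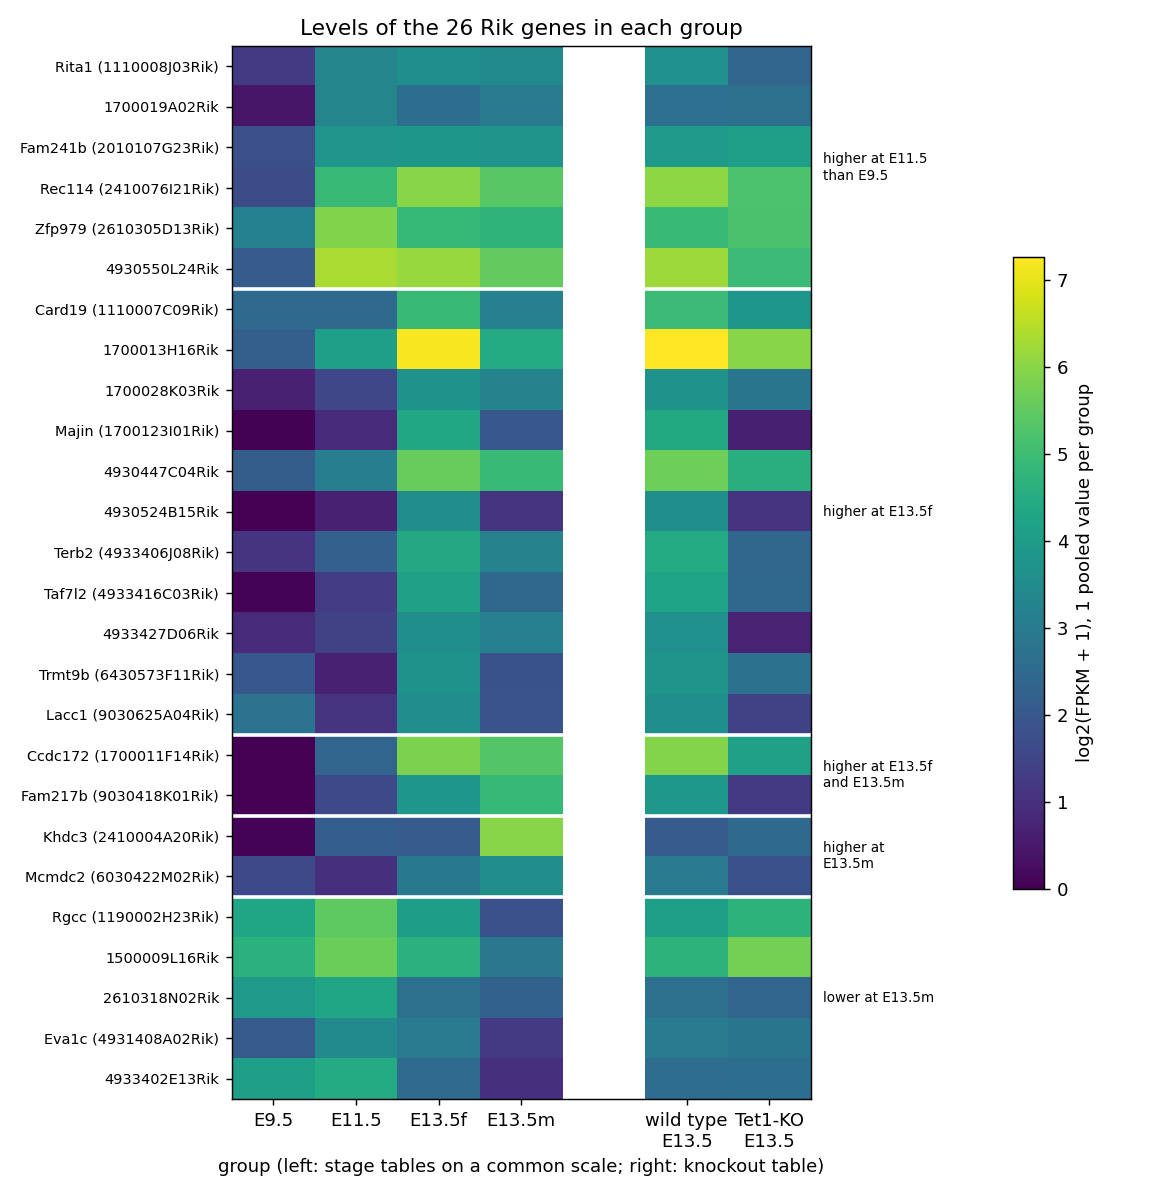
Heat map of log2(FPKM + 1), 1 pooled value per group, for the 26 genes (rows, by stage pattern) in the stage tables on the common scale (left 4 columns) and in the knockout table (right 2 columns). The genes higher at E13.5f are also high in the wild-type column, led by 1700013H16Rik at 146 and 153 FPKM.

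Between E9.5 and E11.5 the highest level was reached by 4930550L24Rik on chromosome X (build mm9, 56164637 to 56173481), which RefSeq lists with the synonym mage-k1 after the MAGE family of cancer-testis antigens. It stood at 3.36 FPKM at E9.5 and 80.0 FPKM at E11.5, a log2 ratio of 4.57 ± 0.84 (SE), and remained at 70.3 FPKM at E13.5f and 44.9 FPKM at E13.5m. Rec114 (listed as 2410076I21Rik) went from 2.18 to 29.5 FPKM (log2 ratio 3.76 ± 1.07, SE), and reached 62.4 FPKM at E13.5f and 40.8 FPKM at E13.5m. 4930550L24Rik thus had its own highest value at E11.5, and Rec114 at E13.5f.

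Zfp979 (2610305D13Rik), a zinc finger gene of a family with many similar copies on chromosome 4, where reads can be split between copies, was at 8.12 FPKM at E9.5 and 57.9 FPKM at E11.5. It then stood at 28.1 FPKM at E13.5f and 25.7 FPKM at E13.5m, so that E11.5 was its peak. The other 3 reached lower levels. Fam241b (2010107G23Rik) went from 2.43 to 12.9 FPKM and was at 13.4 and 12.5 FPKM in the E13.5 groups, Rita1 (1110008J03Rik), which encodes a tubulin-binding partner of the Notch mediator RBPJ, went from 1.36 to 8.97 FPKM and was at 11.4 and 10.2 FPKM, and 1700019A02Rik went from 0.367 to 8.85 FPKM and was at 5.15 and 7.10 FPKM. In their own table these 3 were not called by the authors. Rec114, Zfp979 and 4930550L24Rik were, 3 of 6, where the table called 3.71 percent of its tested rows higher. The 6 were chosen by their rise in this table. Of 149 rows without a Rik name that met the same rule upward, 118 were called, a higher share than among the 6. None of the 26 was called lower, beside 1.92 percent of tested rows. Summed blood markers went from 2169 FPKM at E9.5 to 29.1 FPKM at E11.5 in the same table, with 5 of 5 tested markers called lower and Hbb-b1 and Ptprc below 0.1 FPKM in both groups. The part of blood RNA in these changes was not tested.

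Most of the other genes also had a higher value at E11.5 than at E9.5. From E9.5 to E11.5, 23 of the 26 genes had a higher value at E11.5, with a median log2(FPKM + 1) difference of 1.2 beside 0.29 over all tested rows. Ccdc172, Fam217b and 4930524B15Rik were listed at 0 FPKM at E9.5, where an exact 0 can also be a failed estimate. The 3 genes with lower values at E11.5 were Trmt9b (6430573F11Rik), related to tRNA methyltransferases, at 2.95 and 0.589 FPKM, Lacc1 (9030625A04Rik), a metabolic enzyme known from macrophages, at 5.82 and 1.12 FPKM, and Mcmdc2, at 2.03 and 0.957 FPKM. None of the 3 differences was called by the authors. All 3 genes later stood above their E9.5 level at E13.5f.

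The largest group of the set, 13 genes, was higher at E13.5f than at E11.5. At E13.5f the highest of all 26 genes was 1700013H16Rik (synonyms Slx2 and Xlr6, of the Xlr family; chromosome X, 51046077 to 51061008), at 3.62 FPKM at E9.5, 16.0 FPKM at E11.5, 146 FPKM at E13.5f and 21.2 FPKM at E13.5m. Its step from E11.5 was a log2 ratio of 3.18 ± 0.50 (SE) to E13.5f and 0.41 ± 0.59 (SE) to E13.5m. E13.5f was its highest group by far, and E13.5m lay near E11.5.

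The telomere complex genes had the same order of groups. Majin (1700123I01Rik; chromosome 19, 6184409 to 6224219) stood at 0.0218, 0.816, 19.5 and 2.89 FPKM at E9.5, E11.5, E13.5f and E13.5m. Its partner Terb2 (4933406J08Rik; chromosome 2, 122012007 to 122032129) stood at 1.13, 3.71, 19.9 and 8.50 FPKM in the same groups. At E13.5f the genes of these 2 subunits had nearly equal levels, with log2 ratios from E11.5 of 4.58 ± 0.89 (SE) and 2.42 ± 0.60 (SE).

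The genes of synapsis and crossover formation were high in both E13.5 groups. 4930447C04Rik (Six6os1; chromosome 12, 73982095 to 74018752) was at 7.62 FPKM at E11.5, 47.3 FPKM at E13.5f and 29.7 FPKM at E13.5m. 1700028K03Rik (SCRE) was at 1.91, 11.97 and 8.56 FPKM. It shares its listed locus on chromosome 5 with Glmn and Rpap2, all 3 without a completed test in the E13.5m table, and both neighbours had higher levels, at 53.0 and 54.5 FPKM at E11.5 in the E13.5f table. Reads of overlapping genes cannot be told apart here, since nothing in the labels says that strand was kept. Of the other genes, Rec114 shares its listed locus with Nptn, which was at 4.52 FPKM at E11.5 in the E13.5f table, and 2610318N02Rik with Mir130b and Mir301b, both listed at 0 FPKM.

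Ccdc172 (1700011F14Rik), a coiled-coil gene, was at 4.20 FPKM at E11.5, 56.7 FPKM at E13.5f and 38.7 FPKM at E13.5m. Fam217b (9030418K01Rik) was at 2.06, 13.2 and 28.3 FPKM, the only gene of the 13 with a higher value in E13.5m than in E13.5f. The long non-coding 4933427D06Rik (chromosome 6, 89046108 to 89060031) was at 1.69, 11.2 and 7.95 FPKM.

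The other genes of this group were at least 3 times as high in E13.5f as in E13.5m. 4930524B15Rik (chromosome 11, 31865632 to 31879651) was at 0.593 FPKM at E11.5, 10.8 FPKM at E13.5f and 1.15 FPKM at E13.5m. Taf7l2 (4933416C03Rik), a single-exon relative of the TFIID subunit gene Taf7, was at 1.45, 17.0 and 4.52 FPKM, and it shares its listed locus with Ptprr, which was below 0.1 FPKM in every group. Trmt9b was at 0.589, 12.02 and 2.53 FPKM, Lacc1 at 1.12, 10.8 and 2.69 FPKM, and Card19 (1110007C09Rik), which encodes a caspase recruitment domain protein, at 4.75, 28.6 and 8.01 FPKM. Over the 13 genes, E13.5f over E13.5m ranged from 0.466 to 9.37 with a median of 3.57. All 13 also had a higher value than at E11.5 in the E13.5m table, by 1.32- to 13.7-fold. Of these rises to E13.5m, the authors called only those of Ccdc172, Fam217b, 4930447C04Rik and 4933427D06Rik. That of 1700028K03Rik had no completed test. Both tables share the E11.5 libraries, so a low E11.5 value would raise both ratios. From E11.5 to E13.5f, summed female gonad soma markers went from 2.47 to 12.1 FPKM (1 of 3 tested called higher, Wnt4 below 0.1 FPKM in both groups), blood markers from 25.3 to 3.29 FPKM (1 of 4 called lower) and epithelium markers from 232 to 346 FPKM (1 of 6 called higher and 1 lower). Mesenchyme markers went from 115 to 154 FPKM with none of 2 called, and endothelium markers from 70.7 to 68.7 FPKM with 1 of 1 called lower and Kdr below 0.1 FPKM in both. The part of such cells in these changes was not tested. The authors called all 13 in the E13.5f table, where 9.34 percent of tested rows were called higher. The 1 called lower there was 4933402E13Rik, beside 2.68 percent of tested rows. In the same comparison, 18 of 19 tested genes of a meiosis reference list and 5 of 14 of a piRNA pathway list were also called higher. From E11.5 to E13.5m, 7 of 18 tested genes of the meiosis list and 4 of 14 of the piRNA list were called higher. The rise of these lists was thus not confined to E13.5f.

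**Figure D2:**
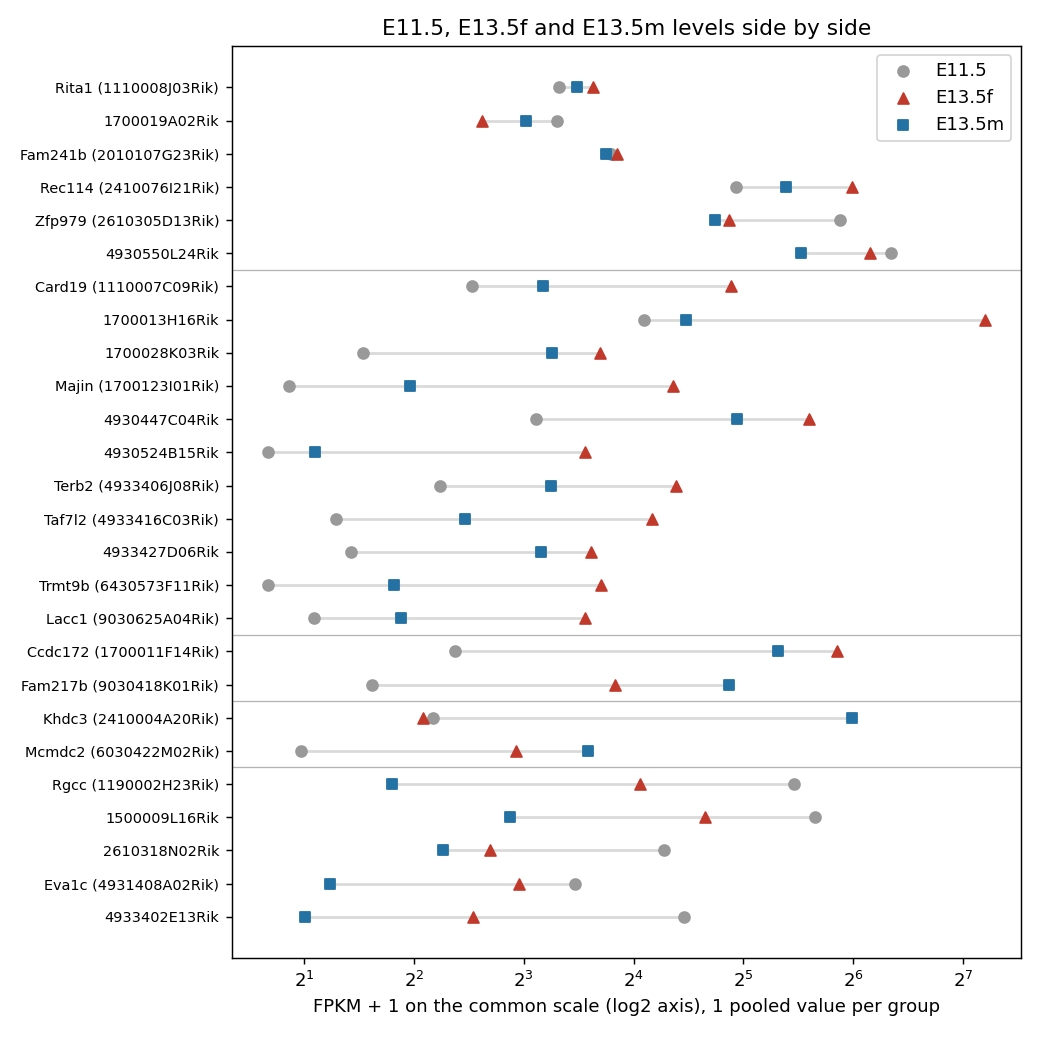
Levels of the 26 genes at E11.5 (circles), E13.5f (triangles) and E13.5m (squares), as FPKM + 1 on the common scale on a log2 axis, 1 pooled value per group, with lines between patterns. The 4 genes whose square lies right of the triangle are 1700019A02Rik, Fam217b, Khdc3 and Mcmdc2, and in the last block every circle lies rightmost.

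Khdc3 and Mcmdc2 met the rule upward at E13.5m alone. Khdc3 (2410004A20Rik; chromosome 9, 72950204 to 72952250) encodes FILIA, known from the maternal protein complex of eggs and early embryos and from genome stability in pluripotent cells. It stood at 0.0493 FPKM at E9.5, 3.52 FPKM at E11.5, 3.23 FPKM at E13.5f and 62.5 FPKM at E13.5m. Its step to E13.5m was a log2 ratio of 4.15 ± 0.59 (SE), beside -0.12 ± 0.71 (SE) to E13.5f, and it had the highest E13.5m value of the 26 genes. Mcmdc2 (6030422M02Rik; chromosome 1, 9898718 to 9931035) was at 0.957 FPKM at E11.5, 6.61 FPKM at E13.5f and 10.99 FPKM at E13.5m, so its absence from the E13.5f pattern rests on the level and fold limits.

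The 5 genes that were lower at E13.5m were lower at E13.5f as well, but by less. 4933402E13Rik (chromosome X, 59536673 to 59545253) stood at 21.0 FPKM at E11.5, 4.81 FPKM at E13.5f and 1.01 FPKM at E13.5m. Rgcc (1190002H23Rik), a regulator of the cell cycle, stood at 43.0, 15.6 and 2.49 FPKM, and 1500009L16Rik (synonym OCC-1), with the shortest coding sequence of the set at 189 bases, at 49.2, 24.0 and 6.33 FPKM. Eva1c (4931408A02Rik), a membrane receptor gene, stood at 10.1, 6.76 and 1.35 FPKM, and 2610318N02Rik at 18.4, 5.45 and 3.82 FPKM. In all 5 the order was E11.5, E13.5f, E13.5m from high to low. In the E13.5m table the authors called 4 of these 5, all but 2610318N02Rik, beside 1.94 percent of tested rows called lower. They also called all 4 genes that met the rule upward, beside 2.94 percent called higher. These genes were chosen by their change in this table, so the calls are no separate support. Of rows without a Rik name that met the same rule, 77 of 86 were called downward and 90 of 103 upward. Summed mesenchyme markers went from 118 to 31.7 FPKM (1 of 3 tested called lower) and endothelium markers from 72.4 to 41.2 FPKM (1 of 1) in this table. Other lists rose: male gonad soma from 2.43 to 12.5 FPKM (1 of 5 called higher) and female gonad soma from 2.53 to 10.2 FPKM (1 of 3). Epithelium markers went from 237 to 350 FPKM (1 of 6 called higher and 1 lower) and blood markers from 25.9 to 38.8 FPKM (none of 4 called). The part of such cells was not tested. Below 0.1 FPKM in both groups were Pdgfra of the mesenchyme markers, Foxl2 and Wnt4 of the female gonad soma markers and Ptprc of the blood markers.

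Among genes just inside and outside the limits, Fam241b entered at 4.17-fold between E9.5 and E11.5, where 1700013H16Rik missed at 3.77-fold. To E13.5f, Terb2 entered at 4.43-fold, 4930572J05Rik missed at 3.89-fold and, downward, 4933402E13Rik missed at 3.79-fold. To E13.5m, 2610318N02Rik entered at 4.04-fold and 1700019D03Rik missed at 3.59-fold. By level, 1700019A02Rik entered at 10.2 FPKM in its table, and 1600029D21Rik, at 9.26 FPKM at E11.5, missed. No Rik row passed fold and level without a completed test in that table.

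The knockout comparison asked what loss of Tet1 changed at E13.5. The stage rule did not use the Tet1-KO values. It did choose 13 of the genes for high E13.5f values, which nearly equal the wild-type values used here. The counts over all 26 genes are therefore not independent of the choice, and the 2 parts are given apart below. In Tet1-KO cells 10 of the 26 genes fell, 0 rose and 16 were not called, beside 5.48 percent of all 16394 rows called lower and 0.677 percent called higher at the authors' FDR of 0.05. The median log2(FPKM + 1) difference was -1.09 for the 26 genes and -0.21 for all rows, and at an unadjusted p under 0.05 16 of the 26 were lower and 1 was higher, beside 18.6 percent and 2.81 percent of all rows. The 10 that fell were Majin, Terb2, Taf7l2, Ccdc172, Fam217b, Lacc1, 4930524B15Rik, 4933427D06Rik, 1700013H16Rik and 4930550L24Rik. Germ cell markers summed to 4064 FPKM in wild-type cells, beside 2905 FPKM in Tet1-KO, with 1 of 10 called higher and 1 lower. The 1 called lower was Dazl, at 1491 and 671 FPKM, which made up much of the difference between the sums. Endothelium markers summed to 72.3 and 99.3 FPKM and female gonad soma markers to 12.6 and 16.5 FPKM, with none called. Epithelium markers summed to 363 and 254 FPKM and male gonad soma markers to 1.83 and 0.874 FPKM, with none called, and mesenchyme markers to 162 and 153 FPKM, with 1 of 3 called lower. The 2 blood markers in the table summed to 1.41 and 0.00828 FPKM. The part of such cells in these changes was not tested.

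This comparison was not independent of the E13.5f choice. The wild-type values of the knockout table were 1.004 to 1.05 times the E13.5f values of all 26 genes, with a median of 1.04, so the same libraries may lie behind both. Of the 13 genes chosen through E13.5f, 9 fell in Tet1-KO. Of 188 rows without a Rik name chosen in the same way, 118 fell, 62.8 percent, beside 69.2 percent of the Rik genes. Of the 13 genes that the E13.5f table did not choose, 1 fell, 4930550L24Rik, a share of 7.69 percent beside the 5.48 percent of all rows, and their median difference was 0.04. Relative to the median of the table that call was lost (adjusted p of 0.149, Benjamini-Hochberg adjustment), which left 0 lower and 1 higher of 12. Of 276 rows without a Rik name that the E13.5f table did not choose, 35 fell, 12.7 percent. Nothing particular to Rik genes is read from these shares.

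Majin had the largest change, from 20.4 FPKM in wild type to 0.562 FPKM in Tet1-KO (log2 ratio -5.18 ± 0.99, SE; FDR 3.34e-05 in the authors' deposited table). Its partner Terb2 fell from 20.7 to 4.32 FPKM (log2 ratio -2.26 ± 0.54, SE; FDR 0.00216 in the authors' deposited table). Both telomere complex genes thus fell, and Terb2 in Tet1-KO stood near its E11.5 value of 3.71 FPKM in the stage table. Scales of the tables differ, and no test was made across them.

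The non-coding 4933427D06Rik fell from 11.7 FPKM to 0.655 FPKM (log2 ratio -4.15 ± 0.84, SE). Fam217b fell from 13.7 FPKM to 1.36 FPKM (log2 ratio -3.34 ± 0.70, SE). 4930524B15Rik fell from 11.2 FPKM to 1.18 FPKM (log2 ratio -3.25 ± 0.81, SE). These 3 genes had the lowest Tet1-KO levels of the set after Majin. Lacc1 fell from 11.3 to 1.649 FPKM, Taf7l2 from 17.7 to 4.34 FPKM and Ccdc172 from 59.1 to 16.8 FPKM. The FDR values of these 6 genes in the authors' deposited table lay between 0.000138 and 0.00565.

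The X-linked pair fell by less and from higher levels. 1700013H16Rik fell from 153 to 62.0 FPKM (log2 ratio -1.31 ± 0.38, SE; FDR 0.0180 in the authors' deposited table), and 4930550L24Rik from 73.4 to 29.9 FPKM (log2 ratio -1.30 ± 0.36, SE; FDR 0.0127). Neither was called relative to the median of the table. In Tet1-KO, 1700013H16Rik remained above its E11.5 value of 16.0 FPKM. The third X-linked gene of the set, 4933402E13Rik, was at 5.03 FPKM in wild-type cells, beside 5.21 FPKM in Tet1-KO. The X chromosome held 3 of the 26 genes, 11.5 percent, beside 4.39 percent of single-name rows.

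Other genes with meiotic roles had lower values that were not called. 4930447C04Rik was at 49.3 FPKM in wild-type cells, beside 23.2 FPKM in Tet1-KO (log2 ratio -1.09 ± 0.38, SE; FDR 0.0630 in the authors' deposited table). Rec114 was at 65.0 and 36.2 FPKM, with -0.84 ± 0.42 (SE). Mcmdc2 was at 6.89 and 2.47 FPKM, with -1.48 ± 0.61 (SE), and 1700028K03Rik at 12.1 and 6.13 FPKM, with -0.98 ± 0.71 (SE). Whether these differ from the telomere genes in their response was not tested. In the same comparison, 14 of 23 genes of the meiosis reference list and 4 of 14 of the piRNA pathway list fell, and none of either list rose.

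Neither Khdc3 nor any of the 5 genes lower at E13.5m was called in Tet1-KO. Khdc3 was at 3.37 FPKM in wild-type cells, beside 4.60 FPKM in Tet1-KO (log2 ratio 0.45 ± 0.67, SE). Rgcc was at 16.2 and 25.1 FPKM, with 0.64 ± 0.52 (SE), and Eva1c at 7.01 and 6.14 FPKM. The highest ratio of the set was that of 1500009L16Rik, at 25.0 and 52.7 FPKM (log2 ratio 1.07 ± 0.42, SE; FDR 0.0969 in the authors' deposited table). Card19 was at 29.8 and 13.2 FPKM, Trmt9b at 12.5 and 5.60 FPKM and Rita1 at 11.9 and 4.22 FPKM, none of them called. Fam241b was at 14.0 and 16.2 FPKM, Zfp979 at 29.6 and 35.5 FPKM, 2610318N02Rik at 5.47 and 4.15 FPKM and 1700019A02Rik at 5.25 and 5.42 FPKM.

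**Figure D3:**
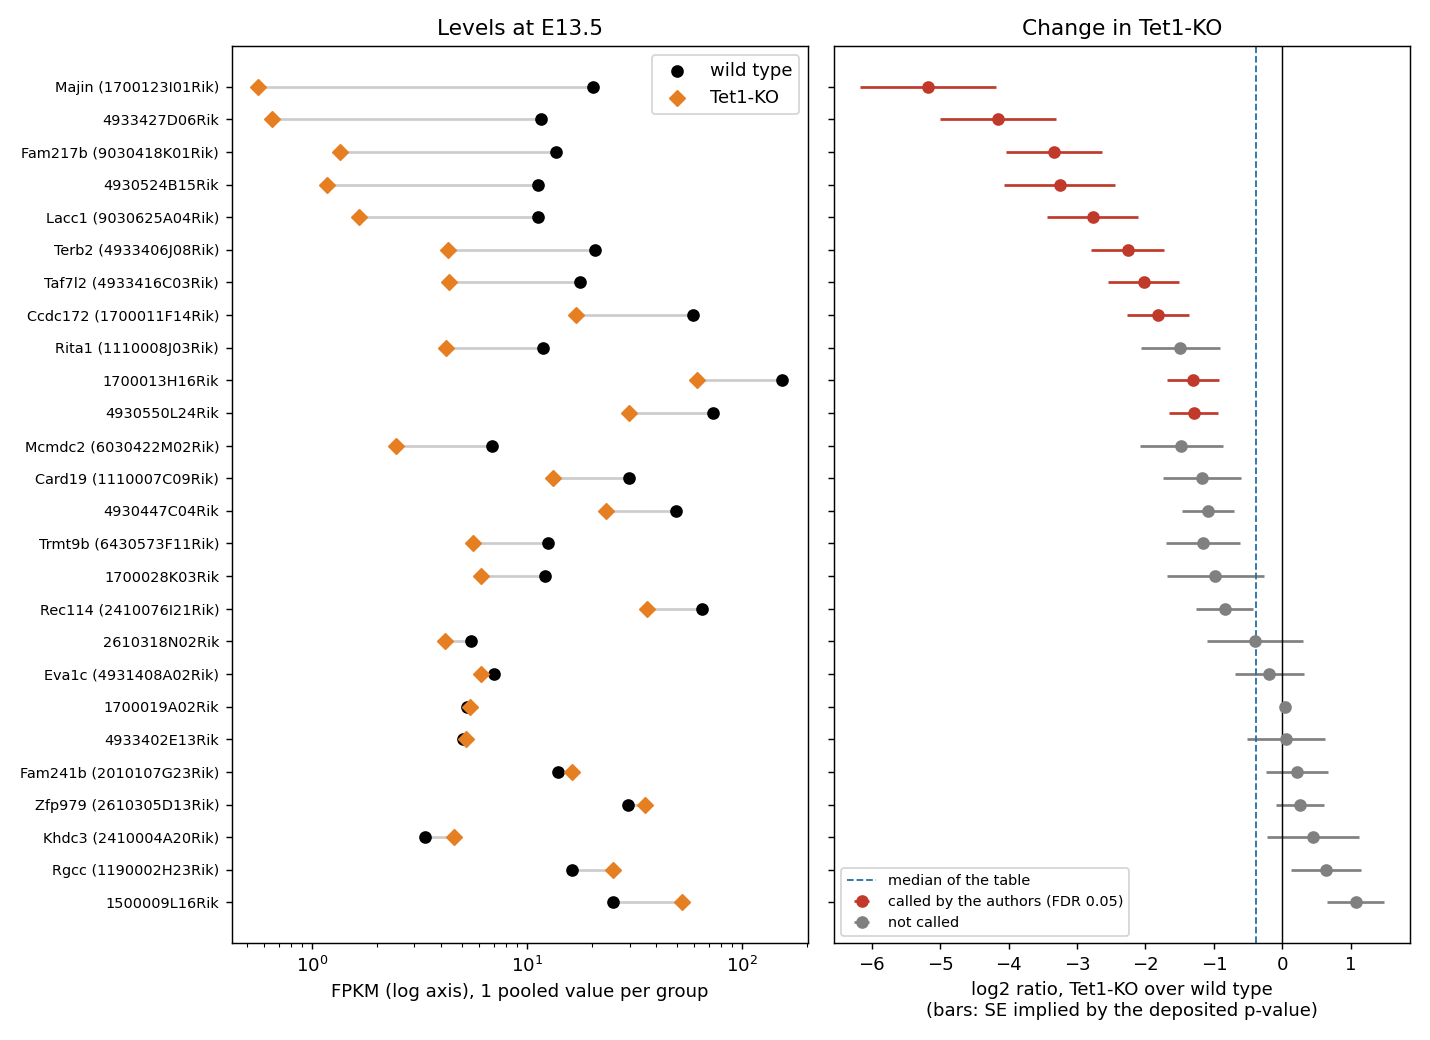
Left, FPKM on a log axis in wild type (circles) and Tet1-KO (diamonds), 1 pooled value per group, for the 26 genes ordered by the difference in log2(FPKM + 1). Right, the log2 ratio with the SE implied by the deposited p-value as bars (1700019A02Rik has none), the dashed line being the median of the table at -0.38; the 10 genes called by the authors all lie left of it.

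The median log2 ratio of the knockout table, over genes at 1 FPKM or above in both groups, was -0.38. Relative to it, 8 genes fell and 1 rose among 25 that could be tested: 1700013H16Rik and 4930550L24Rik were no longer called (adjusted p of 0.174 and 0.149 with Benjamini-Hochberg adjustment), and 1500009L16Rik passed, with a shifted log2 ratio of 1.45 and an adjusted p of 0.0214. Over all 13751 rows tested in this way, 1.69 percent were lower and 1.92 percent higher. Subtracting the median takes out a shift shared by the rows, so this near balance follows largely from that step. Whether the shift of -0.38 is biological was not tested. Of the 13 genes chosen through E13.5f, 8 were still lower, beside 61 of 186 rows without a Rik name chosen in the same way.

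Because TET1 acts on methylated CpG dinucleotides, the bases before the start of these genes were examined for CpG content. RefSeq promoter entries (build GRCm38.p6) were matched for 22 genes; Majin, Terb2, Mcmdc2 and Trmt9b had none. Below are the 250 bases before the start of the 4 genes with the largest falls in Tet1-KO among those with an entry, then of 4933402E13Rik and Khdc3, which were not called and are shown for contrast. Each is written 5′ to 3′ on the strand of the gene, with CpG dinucleotides in capitals.
4933427D06Rik, chr6:89095860-89096109, + strand: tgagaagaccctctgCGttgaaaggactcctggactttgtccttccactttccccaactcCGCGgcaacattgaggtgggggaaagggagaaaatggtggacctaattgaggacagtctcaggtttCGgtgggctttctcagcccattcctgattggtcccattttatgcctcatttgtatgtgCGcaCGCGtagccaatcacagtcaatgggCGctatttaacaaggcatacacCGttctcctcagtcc
Fam217b (9030418K01Rik), chr2:178414284-178414533, + strand: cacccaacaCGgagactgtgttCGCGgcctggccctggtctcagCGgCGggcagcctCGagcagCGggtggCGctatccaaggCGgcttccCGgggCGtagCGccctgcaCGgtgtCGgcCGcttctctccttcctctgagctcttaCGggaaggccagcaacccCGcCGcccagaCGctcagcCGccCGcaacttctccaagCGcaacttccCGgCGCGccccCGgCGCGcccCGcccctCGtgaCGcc
4930524B15Rik, chr11:31965383-31965632, + strand: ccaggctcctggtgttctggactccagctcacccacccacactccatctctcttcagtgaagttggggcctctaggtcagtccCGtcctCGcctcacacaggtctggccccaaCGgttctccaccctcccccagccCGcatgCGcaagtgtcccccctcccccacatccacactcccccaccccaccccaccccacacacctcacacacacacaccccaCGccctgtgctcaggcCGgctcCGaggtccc
Lacc1 (9030625A04Rik), chr14:77036618-77036867, - strand: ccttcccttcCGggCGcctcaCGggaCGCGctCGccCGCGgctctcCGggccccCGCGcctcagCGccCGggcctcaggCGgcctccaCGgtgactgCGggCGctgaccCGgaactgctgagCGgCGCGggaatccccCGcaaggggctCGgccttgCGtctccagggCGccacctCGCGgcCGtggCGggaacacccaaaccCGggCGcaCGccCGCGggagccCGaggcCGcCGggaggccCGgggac
4933402E13Rik, chrX:62283249-62283498, + strand: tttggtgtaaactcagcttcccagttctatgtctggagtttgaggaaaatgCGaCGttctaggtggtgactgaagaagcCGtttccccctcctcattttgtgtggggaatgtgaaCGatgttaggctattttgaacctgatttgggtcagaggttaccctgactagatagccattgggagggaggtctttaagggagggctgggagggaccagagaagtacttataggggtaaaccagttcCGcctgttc
Khdc3 (2410004A20Rik), chr9:73102148-73102397, + strand: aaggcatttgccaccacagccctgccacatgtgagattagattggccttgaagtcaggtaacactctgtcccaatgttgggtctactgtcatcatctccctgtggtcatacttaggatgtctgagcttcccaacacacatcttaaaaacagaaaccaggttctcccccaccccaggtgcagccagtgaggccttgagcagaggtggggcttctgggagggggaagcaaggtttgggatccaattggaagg

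The 6 windows range from none to dense. Lacc1 held 38 CpG dinucleotides in 250 bases and Fam217b 31, with observed over expected ratios of 0.97 each, a ratio near 1 being typical of CpG islands. 4933427D06Rik held 9 with a ratio of 0.55, and 4930524B15Rik 8 with a ratio of 0.38 in a window of 66.4 percent GC. 4933402E13Rik held 5 with a ratio of 0.36, and Khdc3 held 0. Both contrast genes lie below the median ratio of 0.59 of the 14 genes not called, which ranged from 0 to 0.85. They do not stand for that group. The genes shown that fell thus included CpG-rich and CpG-poor starts.

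Over the set, the median ratio was 0.63 for the 8 genes with an entry that fell in Tet1-KO and 0.59 for the 14 that were not called, beside 0.54 over 17492 protein-coding genes and 0.38 over 27025 genes of any kind. The 10 genes higher at E13.5f had a median of 0.64 and the other 12 a median of 0.54. These medians lie close together within wide ranges, from 0.38 to 0.97 among the genes that fell and from 0 to 0.85 among those not called. No methylation was measured in the files used here.

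**Figure D4:**
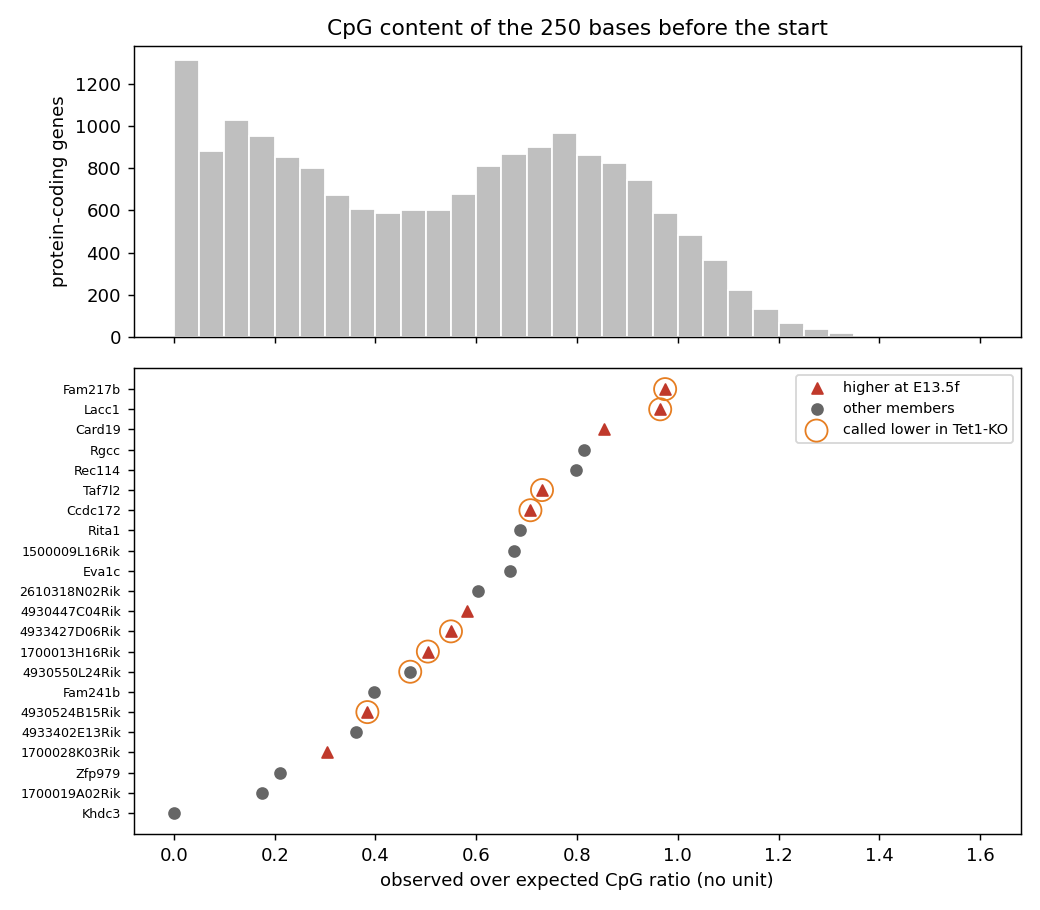
Top, observed over expected CpG ratio in the 250 bases before the start for protein-coding genes (bars are numbers of genes). Bottom, the same ratio for the 22 genes with an entry, triangles marking genes higher at E13.5f and open circles those called lower in Tet1-KO, which spread from 0.38 to 0.97.

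A search of the same windows on both strands used 4 motifs, none of which contains another. CCTCAG, a core reported for the meiotic factor STRA8, was in 8 of 22 windows and in 6 of 10 of genes higher at E13.5f (Card19, 1700013H16Rik, 4930447C04Rik, Taf7l2, 4933427D06Rik and Lacc1), beside 22.2 percent of all windows. The median GC share of those 10 windows was 64.6 percent, beside 52 percent over all windows. The part of base content in these matches was not tested. The E-box CACGTG was in 2 windows, Rec114 and 4930447C04Rik, beside 6.04 percent of all. GGCGGGAA, an E2F-type motif, was in 1, Lacc1, beside 1.91 percent. The CRE motif TGACGTCA was in 0 of 22, beside 1.599 percent. A match is a description of these letters and not evidence of binding.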

How the data were processed

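Messenger RNA of mouse primordial germ cells was sequenced in 12 libraries, from 400 to 5000 cells (E9.5, E11.5, E13.5m) or 500 to 2000 cells (wild type and Tet1-KO at E13.5), after cDNA amplification, per the labels' protocols. Bowtie, TopHat 1.3.1 and Cufflinks and Cuffdiff (1.2.1 for the stage tables, 1.0.3 for the knockout table) and build mm9 are named in the submitters' processing notes. The authors deposited FPKM values, 1 pooled value per group, with a p-value and a q-value. The test statistic and the knockout FDR are scores deposited by the authors; 2182 FDR values exceed 1. Listed loci can span several overlapping genes.

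Calls are the authors' own, by Cuffdiff at 0.05 over rows with a completed test. Log2 ratios were computed from the FPKM values, with SE the ratio over the deposited statistic (stages) or over the p-value's normal deviate (knockout, deviates above 0.05). Medians are of log2(FPKM + 1) differences, a scale that shrinks the changes of low genes. The knockout test relative to the table's median, taken over genes at 1 FPKM or above in both groups, was normal and two-sided. It was run on simulated data whose noise was normal with the same SEs that the test assumes. Such a run checks the calculation and cannot show that the test holds on these data. The members and lists were chosen with earlier results of these data known. Named genes are all 26 members, with check genes, overlapping neighbours and genes next to the limits. Symbols and promoters came from RefSeq (GRCm38.p6), by symbol or synonym, and coding lengths from GENCODE of the same build. Alternatives were other limits, thresholds, pseudocounts and centring. Software was Python 3.11.15 with pandas 2.3.3, numpy 2.4.6, matplotlib 3.10.9 and scipy 1.17.1.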

Additional observations from a re-analysis of the deposited data

How the results depend on the processing

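The 10 falls in Tet1-KO stayed at 10 with the adjustment computed again and with a minimum log2 ratio of 1. They were 9 without the 4 genes that share a locus and 8 at an FDR of 0.01 or relative to the median of the table. A minimum of 1 FPKM also left 10, but it could remove none, because each stood at 11.2 FPKM or more in wild type. Among the 13 genes that the E13.5f table did not choose, 1 fell, and the median change turned from -1.09 to 0.038. Relative to the median 1 gene rose, and Eva1c (4931408A02Rik) turned from -0.19 to 0.19. The number of members was 10 at 8-fold, 44 at 3-fold, 12 at 20 FPKM and 44 at 5 FPKM. With the authors' call added, 3 of the 6 genes of the E9.5 to E11.5 step were left. At 8-fold 2 genes were higher at E11.5, 4 at E13.5f and 2 at E13.5m, and 2 were lower at E13.5m. With each table set to its median, 2 genes were lower at E11.5 and 1 at E13.5f, where none was before. Pooled values allow no leaving out of libraries, and depth is unknown. No paired analysis was possible because the tables hold 1 pooled value per group.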
